A study of Mus musculus with 6 samples.

Results

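Cytochrome P450 genes were described in the kidneys of 3 mice homozygous for a mutation and 3 wild-type mice, each animal on a separate single-colour CodeLink oligonucleotide array. The genes were taken as all those to which the platform annotation gives a probe with a single symbol made of Cyp and a digit, leaving out Cyp27b1, Cyp24a1 and Cyp51. This gave 78 probes for 68 genes, of 18048 genes and 34937 probes on the arrays, and for the 9 genes with more than 1 probe the probe with the highest mean level over the 6 arrays stood for the gene. The choice used no difference between genotypes. Another 6 probes annotated to several genes that include a P450 were left out.

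Per the labels, the tissue was perfused with saline before freezing, and the series text gives the 3 arrays of a genotype as different animals. The sources used here do not name the mutated gene, its allele, the strain, or the animals' age and sex, so the mutation could not be set against its own transcript. Kidney markers were present: on all 6 arrays the 8 measured of 10 tubule and glomerulus markers, among them Umod, Slc34a1, Aqp2 and Nphs1, lay above the low-signal limit defined below. The arrays labelled replicate 1 stood apart in sex-linked transcripts. Xist, expressed from the inactive X chromosome, had log2 levels of 3.00 in mutant replicate 1 and 2.21 in wild-type replicate 1, against -0.43 and -0.21 in the other mutants and -0.40 and -0.85 in the other wild types. The Y-linked Eif2s3y lay at the floor of -1.79 on both replicate 1 arrays and between 3.01 and 3.46 on the other 4. Each genotype thus had 1 array with Xist above the limit and 2 arrays with Eif2s3y above it. The main comparison of genotypes held no term for this pattern.

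P450 enzymes are heme proteins of the endoplasmic reticulum or the inner mitochondrial membrane that insert an oxygen atom into lipophilic substrates with electrons delivered by reductases or ferredoxin. In kidney the best known members act on arachidonic acid: enzymes of the Cyp2c and Cyp2j subfamilies form epoxides of it, which dilate vessels and reduce sodium reabsorption, and enzymes of the Cyp4a subfamily hydroxylate the end of its chain. Many of these genes are expressed in the proximal tubule, and several are controlled by sex hormones in mice.

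A level is a log2 intensity with 0 set at the median probe of its array, and a level of one probe cannot be set against that of another. Below the low-signal limit of 0.59 log2 (1.51 times the array median) a signal is hard to tell from background. Of the 68 genes, 29 had a mean above this limit in at least 1 genotype, and 20 of these lay above it on all 6 arrays. The other 39 lay below it in both means. Differences are mutant minus wild type in log2 units with the standard error of the limma fit over all 25834 tested probes, and the words rose and fell are kept for genes with a Benjamini-Hochberg adjusted p below 0.05 over all of them.

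Of the 49 P450 genes tested, 2 rose in mutant kidney, Cyp1b1 and Cyp4v3, and 4 fell, Cyp4a14, Cyp2c23, Cyp2j11 and Cyp2d26. All 6 lay above the low-signal limit on every array, and in each of them the mutants and the wild types did not overlap. The calls rest on the same values, so the lack of overlap is no separate evidence. The share that rose was 4.08%, against 5.67% of all 14817 genes tested, and the share that fell was 8.16%, against 1.59%. Among the 29 genes above the limit these shares were 6.90% and 13.8%, against 8.24% and 2.31% of all genes above it. The median difference of the 49 genes was -0.13, with 22 positive and 27 negative, and that of all genes tested was 0.08. Over all genes 840 rose and 235 fell, or 699 and 410 after quantile normalization and 729 and 390 after cyclic loess. Without the intensity trend in the limma variances Cyp1b1 kept its call (limma, adjusted p = 0.0387), and the other 5 had adjusted p between 0.114 and 0.202, while over all 14814 genes 143 rose and 6 fell. Over replicates 2 and 3 alone, Cyp1b1, Cyp4a14, Cyp2c23 and Cyp2j11 passed (limma, adjusted p at most 0.0298), while Cyp4v3 (0.116) and Cyp2d26 (0.114) did not.

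**Figure D1:**
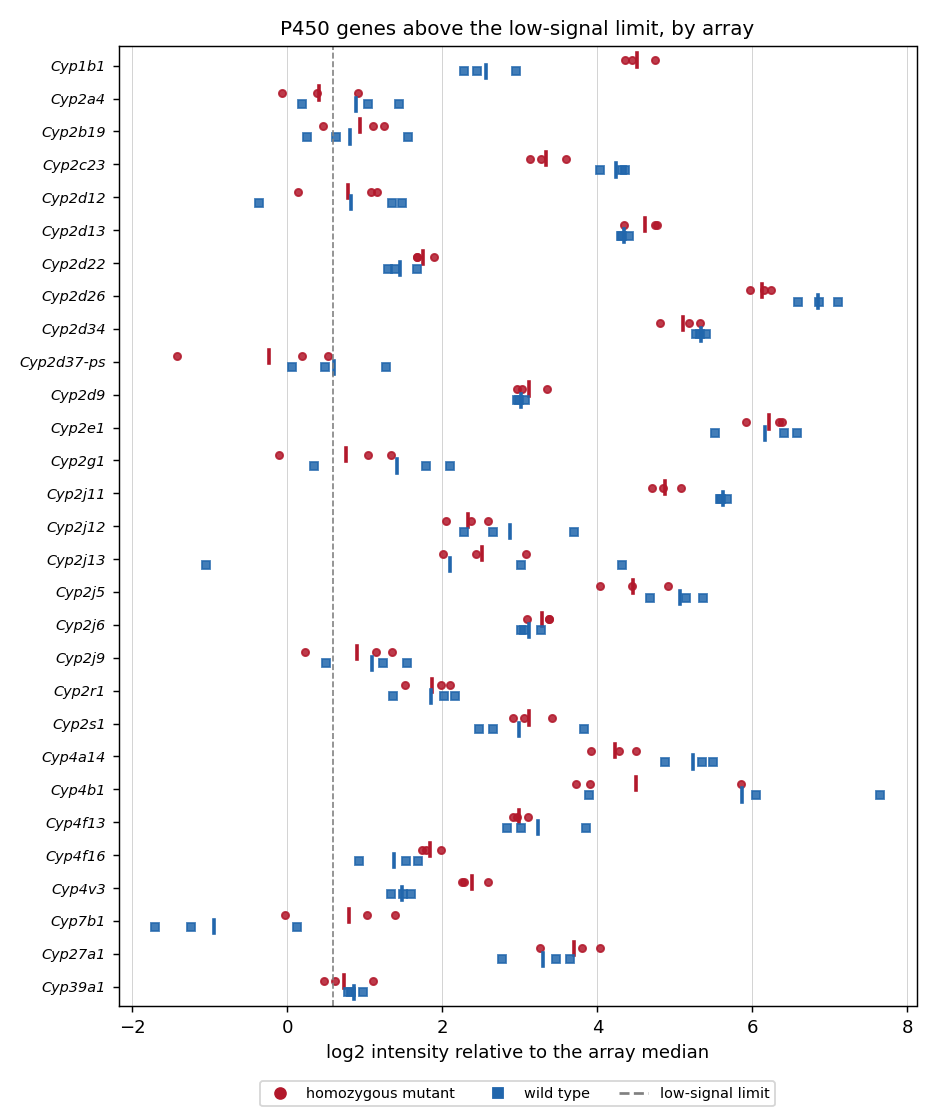
Log2 intensity relative to the array median (horizontal axis) of the 29 P450 genes above the low-signal limit in at least 1 genotype, in mutant arrays (red circles) and wild-type arrays (blue squares), with a vertical bar at each mean of 3 arrays and a dashed line at the limit of 0.59. Mutant and wild-type points do not overlap for Cyp1b1, Cyp4v3 and Cyp4f16 (mutants higher) and for Cyp4a14, Cyp2c23, Cyp2j11 and Cyp2d26 (mutants lower).

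Among these 29 genes the mutants were higher than the wild types without overlap in 3 (10.3%), against 23.1% of all genes above the limit measured on 6 arrays, and lower without overlap in 4 (13.8%), against 10.1%. The seventh such gene was Cyp4f16, which did not pass the test.

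Sequences upstream of the transcription start are shown for the changed genes for which RefSeq promoter entries were at hand (GRCm38.p6), so that the genes that rose can be set beside those that fell. Of the 68 P450 genes 51 had an entry, among them 4 of the 6 changed ones. Each line gives the 250 bases before the annotated start, 5′ to 3′ on the gene's strand. Capitals mark matches on either strand to GCGTG (the core bound by Ahr with Arnt), AGGTCA (a nuclear receptor site), GTTAAT (part of an HNF1 site), TATAAA (the TATA box) and GGGCGG (an Sp1 box), and no matches overlapped.
Cyp1b1, chr17:79715062-79715311, minus strand: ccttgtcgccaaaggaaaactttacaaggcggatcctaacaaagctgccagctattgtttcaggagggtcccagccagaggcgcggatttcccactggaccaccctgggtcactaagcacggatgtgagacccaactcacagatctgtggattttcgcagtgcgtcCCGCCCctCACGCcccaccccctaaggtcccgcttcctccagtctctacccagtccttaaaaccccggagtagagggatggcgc
Cyp4v3, chr8:45333164-45333413, minus strand: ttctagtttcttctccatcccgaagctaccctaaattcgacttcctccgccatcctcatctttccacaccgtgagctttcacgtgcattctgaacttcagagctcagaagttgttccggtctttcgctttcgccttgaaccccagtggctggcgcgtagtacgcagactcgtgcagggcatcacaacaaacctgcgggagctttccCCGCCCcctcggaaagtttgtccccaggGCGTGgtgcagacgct
Cyp2d26, chr15:82794246-82794495, minus strand: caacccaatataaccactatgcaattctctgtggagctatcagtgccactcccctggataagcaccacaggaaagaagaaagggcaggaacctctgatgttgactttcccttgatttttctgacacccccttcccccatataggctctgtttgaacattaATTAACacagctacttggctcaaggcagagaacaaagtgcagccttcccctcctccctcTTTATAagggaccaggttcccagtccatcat
Cyp2j11, chr4:96348681-96348930, minus strand: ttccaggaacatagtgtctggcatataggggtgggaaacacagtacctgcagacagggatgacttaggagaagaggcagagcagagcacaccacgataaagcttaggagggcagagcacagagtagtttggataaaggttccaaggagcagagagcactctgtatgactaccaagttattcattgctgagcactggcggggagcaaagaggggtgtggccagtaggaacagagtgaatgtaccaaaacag

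Cyp1b1 and Cyp4v3, the genes that rose, each held a GGGCGG and a GCGTG match. Of all 32851 promoter windows of the same length 28.2% held GCGTG and 32.7% held GGGCGG. Cyp2d26, which fell, held TATAAA starting 31 bases before the start and GTTAAT starting 90 bases before it, both on the opposite strand. Those letters stood in 12.4% and 6.43% of all windows. Counted per gene, by a match in any window of the gene, TATAAA stood in 19 of the 51 P450 genes with an entry. By the same count GTTAAT stood in 4, GCGTG in 13 and GGGCGG in 15 of them. Counts per gene and shares of windows are unlike measures and cannot be set against each other. The Cyp2j11 window held none of the 5, and AGGTCA, found in 14.0% of all windows, stood in none of the 4 genes printed. A match is a description of the letters only.

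Family 1 holds enzymes that act on aromatic hydrocarbons and estrogens and are induced through the aryl hydrocarbon receptor Ahr. Cyp1b1, a form found mainly outside the liver that also oxidises retinoids, had levels of 4.45, 4.75 and 4.35 log2 in mutant kidneys and 2.28, 2.96 and 2.44 in wild-type kidneys. Every mutant lay above every wild type. The difference was 1.96 ± 0.18, or 3.88-fold (limma, adjusted p = 2.3e-05), and over the 23 processing alternatives it stayed between 1.82 and 2.15 with an adjusted p of at most 0.0387. Cyp1a1 and Cyp1a2, the other measured members of the family, lay below the limit in both means and differed by 0.0066 ± 0.57 and -0.55 ± 0.51, with Cyp1a1 measured on 2 mutant arrays.

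Markers of stroma and of myeloid cells moved with Cyp1b1. Of 8 fibroblast and pericyte markers 7 rose, Lum not passing (limma, adjusted p = 0.0529). Their summed linear intensity lay between 411 and 444 array medians in mutants and between 114 and 145 in wild types. In this and later sums the brightest probes weigh most, here Col3a1. Pdgfrb, a pericyte receptor, rose by 1.35 ± 0.17 and Col1a1, a collagen chain of fibroblasts, by 2.23 ± 0.21. Of 6 measured myeloid markers 4 rose, with sums of 56.9 to 85.9 in mutants and 14.2 to 14.8 in wild types. Adgre1 and Itgam, defining markers of macrophages, lay below the limit on all arrays. Of 5 tested endothelial markers 1 rose, Tie1 by 0.74 ± 0.19. Of all genes above the low-signal limit 8.24% rose. The part of these cell types in the Cyp1b1 difference was not tested, and in bulk tissue more cells of a type cannot be told apart from more RNA per cell.

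In family 4, which hydroxylates fatty acids and leukotrienes, 1 gene rose and 1 fell of 10 tested. Cyp4a14, a fatty acid hydroxylase whose gene is a target of the receptor Ppara, had levels of 3.91, 4.50 and 4.28 log2 in mutants and 4.87, 5.35 and 5.50 in wild types. Every mutant lay below every wild type. The gene fell by 1.01 log2 units with a standard error of 0.18, which is 2.01-fold (limma, adjusted p = 0.00462). Cyp4a31 was measured by 3 probes, all below the limit in both means, and its chosen probe differed by -0.32 ± 0.49. In the RefSeq gene table Cyp4a14 stands beside Cyp4a10 in a cluster of related genes, and signal from a relative cannot be told apart on these arrays.

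Cyp4v3, the mouse counterpart of a human fatty acid hydroxylase gene mutated in a crystalline retinal dystrophy, had levels of 2.59, 2.29 and 2.26 in mutants and 1.34, 1.60 and 1.50 in wild types. The 3 mutants were the 3 highest arrays, and the difference was 0.90 ± 0.21, or 1.86-fold (limma, adjusted p = 0.0215). The second probe of Cyp4v3 gave a difference of 0.96 ± 0.33 that did not pass (0.132). The call was lost without any of the mutant arrays or without wild-type replicate 3, with adjusted p between 0.0510 and 0.108, and over the mean of both probes, with 0.0647.

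The remaining family 4 genes above the limit did not pass. Cyp4f16, of a subfamily that inactivates leukotrienes, had levels of 1.98, 1.75 and 1.80 in mutants and 1.53, 0.92 and 1.69 in wild types, a difference of 0.46 with a 95% interval of -0.09 to 1.02. Cyp4f13 averaged 2.99 ± 0.10 in mutants and 3.24 ± 0.55 in wild types (SD, n = 3 each), and its groups overlapped. Cyp4f18, known from neutrophils, lay below the limit in both means.

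Cyp4b1, a fatty acid hydroxylase under androgen control in mouse kidney, varied most among these 5. Its levels were 3.73, 5.85 and 3.91 in mutants and 3.90, 7.65 and 6.05 in wild types. Both replicate 1 arrays were low, and so was mutant replicate 3. The difference of -1.37 had a 95% interval of -2.89 to 0.15 and did not pass (limma, adjusted p = 0.359). Without wild-type replicate 1 it was -2.36 ± 0.55 and passed (0.0307), without wild-type replicate 2 it was -0.48 ± 0.63 and did not (0.762), and over replicates 2 and 3 alone it was -1.97 ± 0.57 and did not (0.0986).

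Among arachidonic acid epoxygenases, Cyp2c23, also known as Cyp2c44 in mice, had levels of 3.59, 3.13 and 3.28 in mutants and 4.35, 4.04 and 4.31 in wild types. Every mutant array was lower than every wild-type array. It fell by 0.90 log2 units with a standard error of 0.16, or 1.87-fold (limma, adjusted p = 0.00356). The other 9 Cyp2c genes measured lay below the limit in both means. Of these 3 were tested, and none passed: Cyp2c29, Cyp2c39 and Cyp2c55 differed by 0.38 ± 0.63, -1.36 ± 0.63 and 0.19 ± 0.57 (limma, adjusted p of at least 0.300, and above an unadjusted 0.05 for each).

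All 6 Cyp2j genes lay above the limit in at least 1 genotype, and 1 fell. Cyp2j11 had levels of 4.85, 5.08 and 4.70 in mutants and 5.60, 5.67 and 5.58 in wild types, with a spread of 0.05 log2 (SD, n = 3) among the wild types. It fell by 0.74 log2 units with a standard error of 0.14, or 1.67-fold (limma, adjusted p = 0.00547). Cyp2j5, the epoxygenase best studied in mouse proximal tubule, had levels of 4.45, 4.03 and 4.92 in mutants and 4.68, 5.37 and 5.14 in wild types, which overlapped. Its difference of -0.60, with a 95% interval of -1.06 to -0.13, did not pass (0.156). Cyp2j6, whose transcript is found in many tissues, averaged 3.28 ± 0.16 in mutants and 3.11 ± 0.14 in wild types (SD, n = 3 each). The difference was 0.17 with a 95% interval of -0.17 to 0.50. Cyp2j9 differed by -0.19 ± 0.38. In the RefSeq gene table these 6 genes stand in a single run with Cyp2j8, Cyp2j11 lying between Cyp2j12 and Cyp2j8. Whether the differences of neighbouring genes differ from each other was not tested.

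Cyp2j12 and Cyp2j13, also in that run, had the widest spread among wild types in the subfamily. Cyp2j13 had levels of 2.01, 3.08 and 2.44 in mutants and -1.05, 4.32 and 3.02 in wild types, so that wild-type replicate 1 lay below the limit and the other 2 wild types straddled the highest mutant. The difference of 0.41 had a 95% interval of -1.55 to 2.37. Without wild-type replicate 1 it was -1.16 ± 0.35, and neither value passed. Cyp2j12 ran the other way, with 3.71 in wild-type replicate 1 against 2.66 and 2.28 in the other wild types, and 2.60, 2.05 and 2.37 in mutants.

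The Cyp2d subfamily, which oxidises many drugs, had 7 genes above the limit, of which 1 fell. Cyp2d26 had levels of 5.98, 6.16 and 6.24 in mutants and 7.10, 6.59 and 6.86 in wild types. Every mutant array was lower than every wild-type array. The gene fell by 0.73 log2 units with a standard error of 0.16, or 1.66-fold (limma, adjusted p = 0.0181), and the call was lost without mutant replicate 1 or 2 or wild-type replicate 3, with adjusted p between 0.0714 and 0.0843. Cyp2d34, Cyp2d9, Cyp2d13 and Cyp2d22, which lay above the limit on all arrays, differed by between -0.22 and 0.29, with 95% intervals that reached no further than -0.55 below 0 and 0.80 above it. Cyp2d12 and the pseudogene Cyp2d37-ps lay close to the limit and had standard errors of 0.48 and 0.54. Cyp2d37-ps passed the limit only in its wild-type mean of 0.61, with 1 wild-type array and no mutant array above it. The members of this subfamily resemble each other closely, 1 probe annotated to 6 of them was left out, and signal from a relative cannot be told apart on these arrays.

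The other family 2 genes above the limit did not pass. Cyp2e1, which oxidises ethanol and other small molecules, had levels of 5.91, 6.34 and 6.38 in mutants and 5.52, 6.58 and 6.40 in wild types. Replicate 1 was the lowest array of each genotype, and the difference of 0.04 had a 95% interval of -0.47 to 0.55. Cyp2s1, a form of epithelia, averaged 3.13 ± 0.26 in mutants and 2.98 ± 0.73 in wild types (SD, n = 3 each). Cyp2a4, a steroid hydroxylase, Cyp2b19, known from skin, and Cyp2g1, known from olfactory mucosa, had means between 0.41 and 1.42 and standard errors between 0.39 and 0.47, so that only large differences could have passed.

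Genes for sterol, bile acid and vitamin D enzymes did not pass. Cyp7b1, the oxysterol hydroxylase of the alternative bile acid pathway, had levels of 1.40, 1.03 and -0.02 in mutants and -1.71, 0.12 and -1.23 in wild types. Only 2 mutant arrays and no wild-type array lay above the low-signal limit, so the size of its difference is not measured. It did not pass (limma, adjusted p = 0.107), and with arrays left out the adjusted p lay between 0.0395, without wild-type replicate 2, and 0.468, over replicates 2 and 3 alone. Cyp27a1, the mitochondrial sterol hydroxylase of bile acid synthesis, averaged 3.70 ± 0.40 in mutants and 3.29 ± 0.47 in wild types (SD, n = 3 each), with a 95% interval of the difference of -0.10 to 0.91. Cyp2r1, which hydroxylates vitamin D in liver, averaged 1.87 ± 0.31 in mutants and 1.85 ± 0.42 in wild types (SD, n = 3 each). The 95% interval of its difference was -0.54 to 0.57. Cyp39a1, which acts on oxysterols, differed by -0.13 ± 0.33.

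**Figure D2:**
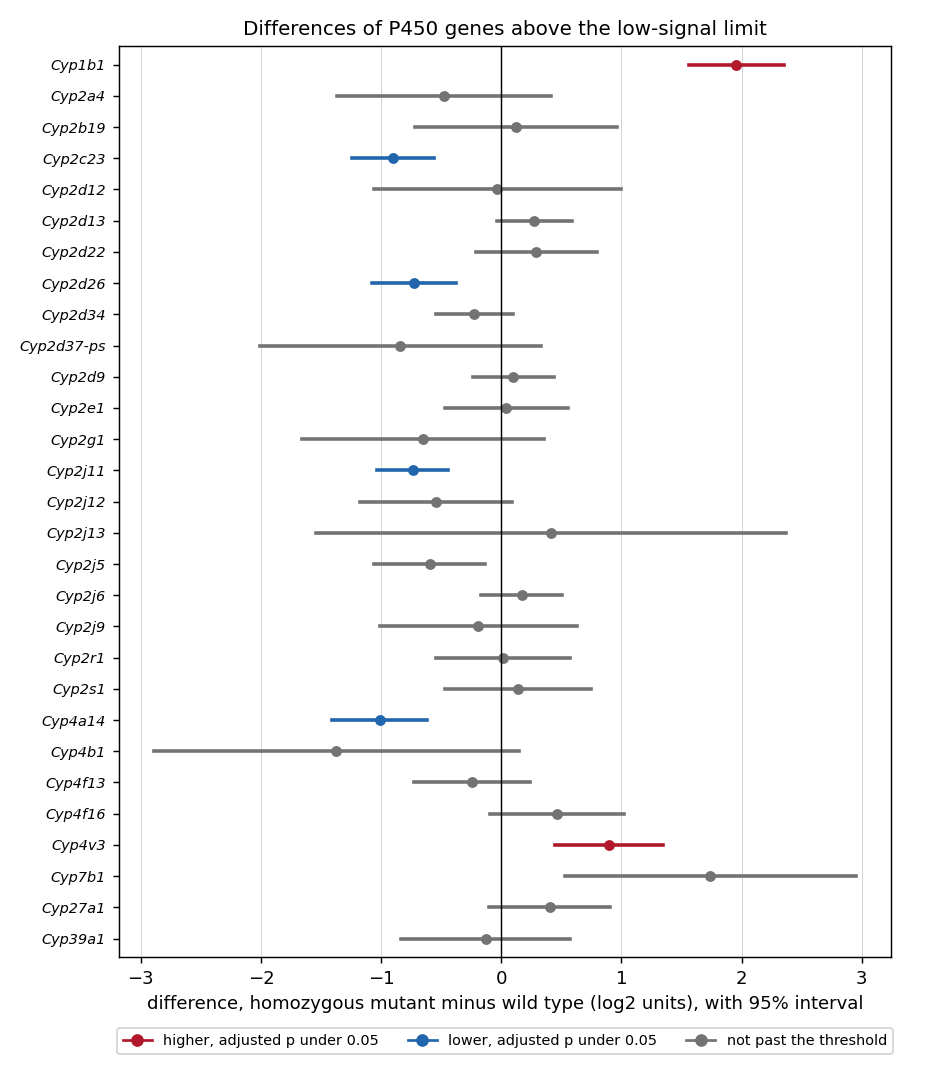
Difference between homozygous mutant and wild-type kidney (horizontal axis, log2 units) of the 29 P450 genes above the low-signal limit, as points with 95% intervals of the limma fit, 3 arrays per genotype. The interval of Cyp1b1 runs from 1.56 to 2.35, and those of Cyp4a14, Cyp2c23, Cyp2j11 and Cyp2d26 end between -0.62 and -0.37. The widest belong to Cyp2j13 and Cyp4b1. That of Cyp7b1 rests on wild-type values below the limit, and that of Cyp2d37-ps on mutant values below it.

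The 39 genes below the limit in both means included the steroid-forming Cyp11a1, Cyp11b2, Cyp17a1 and Cyp21a1, the bile acid genes Cyp7a1 and Cyp8b1, the retinoic acid hydroxylase Cyp26a1, the brain cholesterol hydroxylase Cyp46a1 and all 6 Cyp3a genes, which are drug-oxidising forms of liver. On the log2 scale their values lay between -1.79, the floor, and 1.04, and 4 of the 39 had a value above the limit on some array. Of the 39, 20 entered the test and none passed (limma, smallest adjusted p = 0.300, 0 at an unadjusted p below 0.05). The other 19 did not, Cyp11a1 because 2 wild-type values were missing and the rest for their low mean level. Whether these genes are expressed was not detectable at this signal.

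Markers of 2 organs rich in P450 enzymes were set beside this. Of 6 measured adrenal cortex markers 5 lay below the limit on all arrays, among them Star and Mc2r, and Nr5a1 was above it on all 6. Of 7 measured hepatocyte markers F2 and Tat lay below the limit on all arrays, Alb was above it on 1 mutant and 1 wild-type array, and Apob on 2 mutant arrays and 1 wild-type array. Ttr, Ahsg and Apoa1 were above it on all 6. The list's sum, in which Ttr weighs most, ranged from 90.3 to 124 in mutants and from 67.1 to 128 in wild types. None of either list passed the test.

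Markers of the proximal tubule, where many P450 genes are expressed, moved with the decreases. Of the 8 kidney markers 2 fell: the phosphate transporter Slc34a1 by 0.72 with a standard error of 0.14, and the endocytic receptor Cubn by 0.98 with a standard error of 0.21. Of all genes above the low-signal limit 2.31% fell. Lrp2 and Kap differed by -0.55 ± 0.18 and -0.58 ± 0.18 and did not pass (limma, adjusted p = 0.119 and 0.0901). Kap is also counted in the list of androgen-responsive genes below. The sum of the 8 ranged from 391 to 460 array medians in mutants and from 502 to 534 in wild types. Umod, a marker of another segment, weighs most in it, so the sum is no measure of the proximal tubule alone. The markers of other segments Umod, Slc12a3 and Aqp2 differed by 0.05 ± 0.20, -0.07 ± 0.13 and 0.13 ± 0.30. The part of the proximal tubule decrease in those of Cyp4a14, Cyp2c23, Cyp2j11 and Cyp2d26 was not tested, and fewer tubule cells cannot be told apart from less RNA per cell.

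The difference between the replicate 1 arrays and the others was large for a few P450 genes. In wild types 7 of the 29 genes differed by at least 1 log2 unit between replicate 1 and the mean of replicates 2 and 3, and in mutants 2 did. Among them were Cyp7b1 in wild types and Cyp2d37-ps in mutants, whose values there all lay below the low-signal limit. Neither count was made over all genes on the arrays. Cyp2j13 was lower in replicate 1, with differences of -0.75 in mutants and -4.72 in wild types, and so was Cyp4b1, with -1.15 in mutants and -2.95 in wild types. Cyp2s1 and Cyp2j12 were higher in replicate 1, by 0.43 and 0.39 in mutants and by 1.26 and 1.24 in wild types. Cyp2g1, Cyp7b1 and Cyp2d37-ps went opposite ways in the genotypes. They differed by 0.43, 0.89 and 1.145 in mutants and by -1.595, -1.15 and -0.82 in wild types. Over all 29 genes the direction was the same in both genotypes in 15, and no such share was counted over all genes on the arrays. Each of these values rests on 1 animal per genotype, so no test was made. Of 4 genes known to respond to androgens in mouse kidney, Kap, Odc1, Slco1a1 and Gusb, 1 rose in mutants, Gusb by 0.71 ± 0.19. Of all genes tested 5.67% rose. Kap and Odc1 differed by -0.58 ± 0.18 and -0.50 ± 0.15, every mutant lying below every wild type, and did not pass (limma, adjusted p = 0.0901 and 0.0813). Slco1a1 lay below the limit on all arrays. The list's sum, in which Odc1 and Kap weigh most, ranged from 198 to 229 in mutants and from 275 to 326 in wild types. The part of these 4 genes in the P450 differences was not tested.

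**Figure D3:**
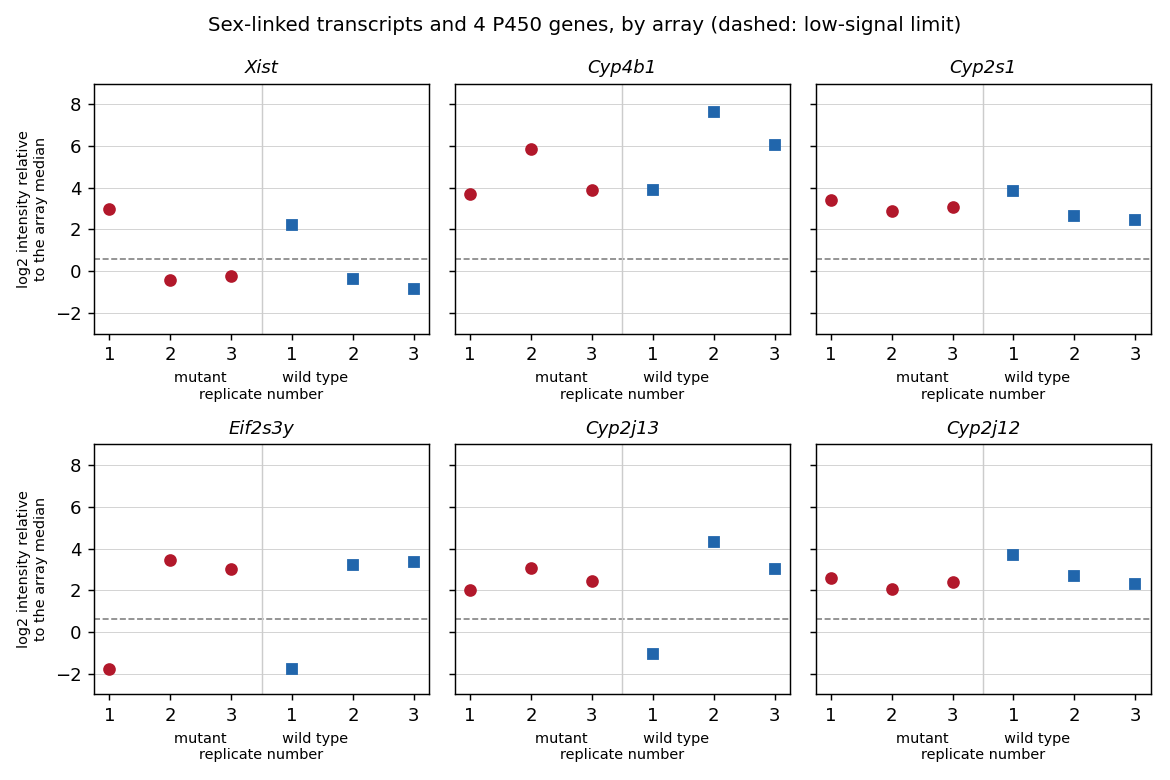
Log2 intensity relative to the array median (vertical axis) of the sex-linked transcripts Xist and Eif2s3y and of 4 P450 genes on each array, mutant replicates 1 to 3 on the left (red circles) and wild-type replicates 1 to 3 on the right (blue squares), with the low-signal limit dashed. Replicate 1 is high for Xist and at the floor for Eif2s3y in both genotypes, and wild-type replicate 1 is low for Cyp2j13 at -1.05 and for Cyp4b1 at 3.90. In the 4 P450 genes shown replicate 1 differs in the same direction in both genotypes, which held for 15 of the 29 genes.

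P450 enzymes depend on partners, and 5 lists of such genes were described beside them. For comparison, 5.67% of all 14817 genes tested rose and 1.59% fell. Among all genes above the low-signal limit these shares were 8.24% and 2.31%. Whether the share of a list differs from these was not tested. Of the 8 tested electron transfer genes 1 fell and 0 rose: Fdx1, the ferredoxin that feeds mitochondrial P450 enzymes, had levels of 5.34, 5.44 and 5.51 in mutants and 6.12, 5.83 and 5.94 in wild types (-0.54 ± 0.14, limma, adjusted p = 0.0353). Cyb5a, cytochrome b5, differed by -0.55 ± 0.19 and did not pass. Of 13 heme genes Hmox1, which degrades heme, rose by 0.83 ± 0.21 (0.0357), and Fech, which inserts the iron, fell by 0.49 with a standard error of 0.13 (0.0495). Alas1, the enzyme that sets the rate of heme synthesis, differed by -0.0021 ± 0.18. The Fdx1, Hmox1 and Fech calls were lost in 8, 12 and 14 of 23 alternatives, the Fdx1 and Hmox1 calls in each fit that left out 1 array other than wild-type replicate 2 and the Fech call in each other than wild-type replicate 1.

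Of 17 tested receptors and factors that control P450 genes, 1 fell and 0 rose. Hnf4a, a nuclear receptor of liver and proximal tubule, had levels of 5.12, 5.36 and 5.18 in mutants and 6.07, 6.13 and 5.74 in wild types, without overlap (-0.76 ± 0.15, limma, adjusted p = 0.00685). The call was lost without the intensity trend and over replicates 2 and 3 alone. Ahr differed by -0.15 ± 0.25, its partner Arnt by 0.67 ± 0.31 and its repressor Ahrr by 0.04 ± 0.21, and none of them passed. Ppara differed by -0.61 ± 0.46, with a mutant mean below the limit.

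In the arachidonic acid pathway beside the P450 branch 4 of 17 tested genes rose and 1 fell. Ephx2, the soluble epoxide hydrolase that inactivates the products of Cyp2c and Cyp2j enzymes, had levels of 3.97, 3.76 and 3.99 in mutants and 4.34, 4.66 and 4.54 in wild types (-0.61 ± 0.14, limma, adjusted p = 0.0201). Ptgds, a prostaglandin D synthase, rose by 1.28 ± 0.16 (0.000213) and Alox5ap, the activating protein of leukotriene synthesis in myeloid cells, by 2.50 ± 0.40 (0.00165). Wild-type replicate 1 lay below the limit for Alox5ap, at -0.05, and without that array its difference was 1.94 ± 0.27. The Alox5ap call was lost under robust variance estimation and without the intensity trend, where its largest adjusted p was 0.116, and the Ptgds call was lost without that trend. Pla2g4a, the phospholipase that releases arachidonic acid, rose by 0.75 ± 0.18 (0.0265), with 2 wild-type arrays measured. Ptgis, prostacyclin synthase, rose by 1.10 ± 0.29 (0.0398), its mean in wild types lying below the limit. It lost its call in 10 of 23 alternatives, among them each fit that left out 1 array other than wild-type replicate 1. Ephx2 lost its call in 5 of 23, among them without mutant replicate 2 or wild-type replicate 2 or 3, and Pla2g4a in 5 of 19, among them without any mutant array.

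Of 17 tested genes of retinoic acid and steroid steps 2 rose and 0 fell. Aldh1a2, which forms retinoic acid, had levels of 3.42, 3.00 and 2.66 in mutants and -0.78, 0.50 and 0.35 in wild types, all 3 below the limit, which is at least 5.40-fold higher (limma, adjusted p = 0.000111). Hsd11b1, which regenerates active glucocorticoid, rose by 0.72 ± 0.15 (0.0120) and lost its call without mutant replicate 2 or wild-type replicate 3, over replicates 2 and 3 alone, over the mean of its probes and without the intensity trend. Its second probe, below the limit in both means, differed by 0.30 ± 0.56 and did not pass (0.852). The Hsd3b4 probe, for a steroid dehydrogenase of mouse kidney, differed by -0.54 ± 0.19 and did not pass.

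**Figure D4:**
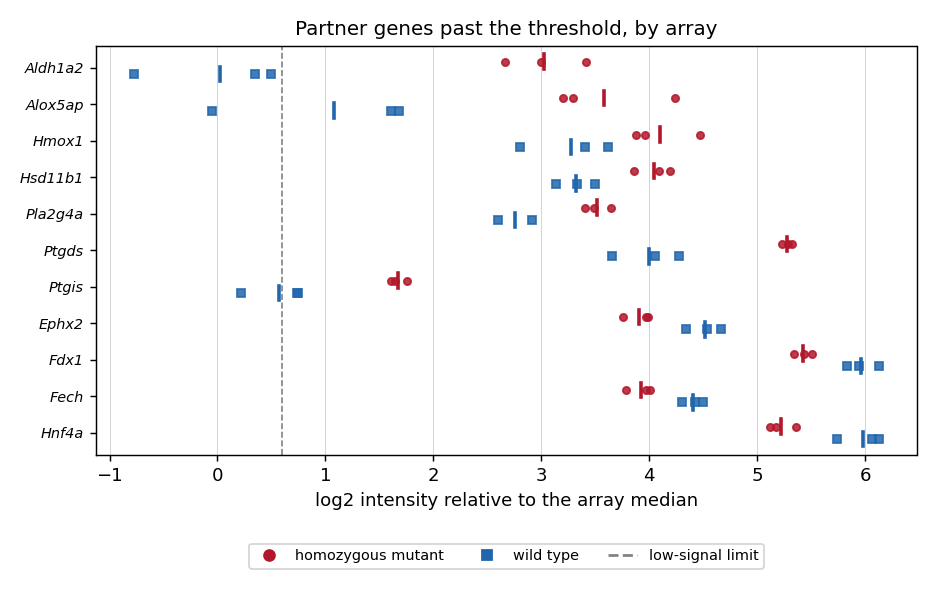
Log2 intensity relative to the array median (horizontal axis) of the 11 partner genes past the threshold, in mutant arrays (red circles) and wild-type arrays (blue squares), with bars at the means and the low-signal limit dashed. The upper 7 genes rose and the lower 4 fell, and the measured mutant and wild-type points do not overlap in any of them. The genes were picked by a test on these same points.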

How the data were processed

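The members and gene lists were chosen with earlier results of these data known. The deposited values are intensities, 1 per probe and array, for 34937 probes. Array medians of 0.994 to 0.997 and values down to -1.02 show that they were background-subtracted and scaled before deposit, while the sources used here do not name the software. After division by the array median, values of 0 or less were dropped, the rest were floored at 0.290 (the 10th percentile of positive values) and log2 transformed. A probe needed 2 values per genotype, and the lowest 25% by mean level were left out, leaving 25834. Limma 3.58.1 in R 4.3.3 (lmFit, eBayes with an intensity trend, two-sided) compared genotypes, with Benjamini-Hochberg adjustment over all probes. The code was tested on simulated arrays.

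The low-signal limit, set after the values had been seen, is the mode of the linear values (0.522) plus 3 times the spread below it (0.329). All P450 genes above it or past the threshold were named, and partner genes past the threshold, at most 4 per list by smallest p. Ptgis, the fifth of its list, the marker genes and the partner genes that did not pass were named after their values had been seen. All 68 symbols matched RefSeq (GRCm38.p6). No probe sequences were used, so cross-hybridization among close relatives could not be examined, and the 3 arrays per genotype limit the precision.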

Additional observations from a re-analysis of the deposited data

How the results depend on the processing

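Over 23 alternatives the count of P450 genes lower was 4 in the main analysis and 3 to 5 with arrays left out in turn. It was 0 with no intensity trend in the prior variance (limma, adjusted p below 0.05 in each). The main analysis had 5 at an unadjusted p below 0.05, a count not made without the trend. With no intensity trend 6 of all 14814 genes were lower and 143 higher, against 235 and 840 in the main analysis. The count higher was 2, and 1 with no intensity trend, with only replicates 2 and 3 of each genotype, at a threshold of 0.01 or over the mean of a gene's probes, and 1 to 3 with arrays left out. It was 1 without any single mutant array or without wild-type replicate 3. Partner genes past the threshold numbered 11 in all, 1 with no intensity trend, 6 with only replicates 2 and 3, 4 at a threshold of 0.01 and 4 to 11 with arrays left out, the low of 4 without mutant replicate 2 and 6 without mutant replicate 1 or wild-type replicate 3. Fits that lack arrays have fewer samples, and beyond that the cause was not tested. The median P450 difference of -0.13 stayed between -0.25 (quantile normalization) and 0.03 (without wild-type replicate 2). Of 667 values of the 29 named P450 genes under alternatives 35 changed sign, in 9 genes, none of them past the threshold in either analysis. Cyp2j13 ran from -1.16 to 1.53. Same-numbered mutant and wild-type arrays correlated by 0.06, 0.02 and 0.05 in their deviations from the genotype means, higher than with any other number. This is a hint from the data and not from the design. The largest, 0.06, joins the replicate 1 arrays, which share the Xist and Eif2s3y pattern. With 3 arrays per genotype these values cannot decide whether the animals were paired. With a replicate block 2 P450 genes rose and 5 fell, the fifth being Cyp4b1 (-1.37 ± 0.26, limma, adjusted p = 0.00359), and 14 partner genes passed. Signal close to background limits the 39 P450 genes below the low-signal limit.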
